A study of Homo sapiens with 4 samples.

Results

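The genes described here are 38 genes of the actomyosin system, chosen by name: actins, myosin heavy and light chains, tropomyosins, and proteins that bind, crosslink or turn over actin filaments. The choice was made with earlier results of these data known, so counts set against all genes only describe the set. These genes were followed among the 25609 genes of an RNA sequencing table from HK-2 cells, an immortalised line of human kidney proximal tubule epithelium. All 38 were present in the table. The tested samples were 2 libraries from wild-type (WT) HK-2 cells given transforming growth factor β1 (TGF-β1) at 20 ng/mL for 24 h. They were set against 2 libraries from WT HK-2 cells labelled as controls. Serum was withheld for 24 h beforehand, and 4-thiouridine (4SU), a uridine analogue that enters newly made RNA, was present at 100 μM over the last 20 h. The labels carry this text for every sample, and controls were taken to have had each step except TGF-β1. HK-2 is a single established line, and nothing states that the 2 libraries of a group came from separate cultures. The p-values therefore set the difference between groups only against the spread of libraries within a group, a spread that may be technical.

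Contractile force in nonmuscle cells comes from bipolar filaments of myosin II that pull on actin filaments in stress fibres. Myosin light chain kinase and the kinase ROCK switch the motor on by phosphorylating its regulatory light chain, tropomyosins and calponins coat the filaments, and α-actinins and filamins tie them together. Actin monomers bind the coactivators of the MRTF family. When monomers are used up in polymerisation, MRTF is freed to act with serum response factor (SRF), which binds a DNA word called the CArG box in front of many genes of actin and actin-binding proteins. In fibrotic kidney, contractile genes are best known from the myofibroblast, whose usual marker is α smooth muscle actin, and TGF-β1 is the cytokine most often used to raise them in culture.

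The authors deposited the values as RPKM (reads per kilobase of exon, adjusted for the size of each library), which allows levels to be compared between genes per length of annotated exon. Whole reads could be recovered from RPKM, with totals of 4639386 and 5452341 in the TGF-β1 libraries and 3337111 and 4802202 in the controls. The authors' scaling used library sizes of 0.896 and 0.864 times these totals for the TGF-β1 libraries, and 1.02 and 0.979 times for the controls, and so placed TGF-β1 libraries higher than scaling by total reads would. Genes with a mean of at least 0.5 RPKM were tested with limma on log2(RPKM + 0.5), a scale that understates changes of weakly expressed genes. "Rose" and "fell" mark an adjusted p below 0.05 over all 16590 genes tested, by the Benjamini-Hochberg method. Values after "log2" are differences on that scale, folds are ratios of mean RPKM, and ± gives the SD of 2 libraries.

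Sequences that match the CArG box were looked for in the RefSeq promoter windows of the members (build GRCh38.p14, 250 bases before to 50 after each annotated start), because several members are well-known SRF targets. Windows were found for 34 of the 38 genes, all but ACTB, FSCN1, MYL9 and TAGLN. A box was present in 7 of these 34 genes (20.6%), against 1.60% of 27305 genes with a window and 1.46% of 10135 tested genes with one. Counted by window, 7 of 56 member windows (12.5%) held a box, against 1.29% of 35116 windows. The box was searched by its full pattern, which reads the same on both strands. The matches are shown with 10 bases on either side, on the strand of the gene, with the box in capitals.
ACTG2, chr2:73892888-73892917, plus strand, box starting 110 bases before the start: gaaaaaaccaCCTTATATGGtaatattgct
ACTG2, chr2:73892925-73892954, plus strand, 73 bases before: cgtcagctggCCTTTTTAGGgactttgttt
MYLK, chr3:123620623-123620652, minus strand, 94 bases before: ataaaccatcCCTTTTATGGgagttgaagc
ACTN1, chr14:68977718-68977747, minus strand, 171 bases before: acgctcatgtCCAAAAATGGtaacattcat
ACTG1, chr17:81512874-81512903, minus strand, 94 bases before: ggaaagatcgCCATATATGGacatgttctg
CNN2, chr19:1026509-1026538, plus strand, 89 bases before: cgcctccaggCCTTATAAGGacatttgcgc
TPM4, chr19:16067355-16067384, plus strand, 173 bases before: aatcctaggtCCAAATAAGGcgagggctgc
FLNA, chrX:154374709-154374738, minus strand, 94 bases before: ggcaattttaCCAATTAAGGctttctcgcc

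Of the 7 genes shown, ACTG1, CNN2, TPM4, ACTN1 and FLNA rose, MYLK fell, and ACTG2 was too low to test. The stretches printed for the second ACTG2 box and for MYLK and ACTG1 overlap exons that GENCODE release 29 gives to the same gene. Whether the boxes themselves overlap, and exons of which transcripts, was not looked at. The MYLK window (chr3:123620499-123620798) belongs to an internal start near the downstream end of the gene, far from its outermost start at 123884331. Which MYLK transcripts fell cannot be told from 1 value per gene. A match is a run of letters and was not tested as a binding site. The 4 largest rises among the members, TPM1, TAGLN, CNN1 and TAGLN2, are not on the list of matches: 3 of them had a window without a box and TAGLN had no window.

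Most of the contractile set was higher with TGF-β1. Of the 38 members 35 passed the filter on low values, 23 rose, 1 fell and 11 were not called, while 6.12% of all tested genes rose and 3.0% fell. Many of those genes are weakly expressed. Under a filter of 2 RPKM, 24 members rose, beside 1185 of 10440 genes (11.4%). The median log2 difference of the tested members was 0.61, against 0.03 over all tested genes. It was positive for 32 of 35 members, against 52.7% of all genes. The libraries of both groups did not overlap for 32 of 35 members (91.4%), against 54.1% of all genes, a high background for groups of this size. Rises of at least 1 on the log2 scale were seen for 7 members, TPM1, TAGLN, CNN1, TAGLN2, VASP, ENAH and MYL9, against 2.38% of all genes. As a share of all recovered reads, the 38 genes took 4.17% and 4.37% of the TGF-β1 libraries and 2.84% and 2.92% of the controls, a measure that does not use the authors' scaling. In a bulk sample, more RNA per cell and more cells with that RNA cannot be told apart.

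**Figure D1:**
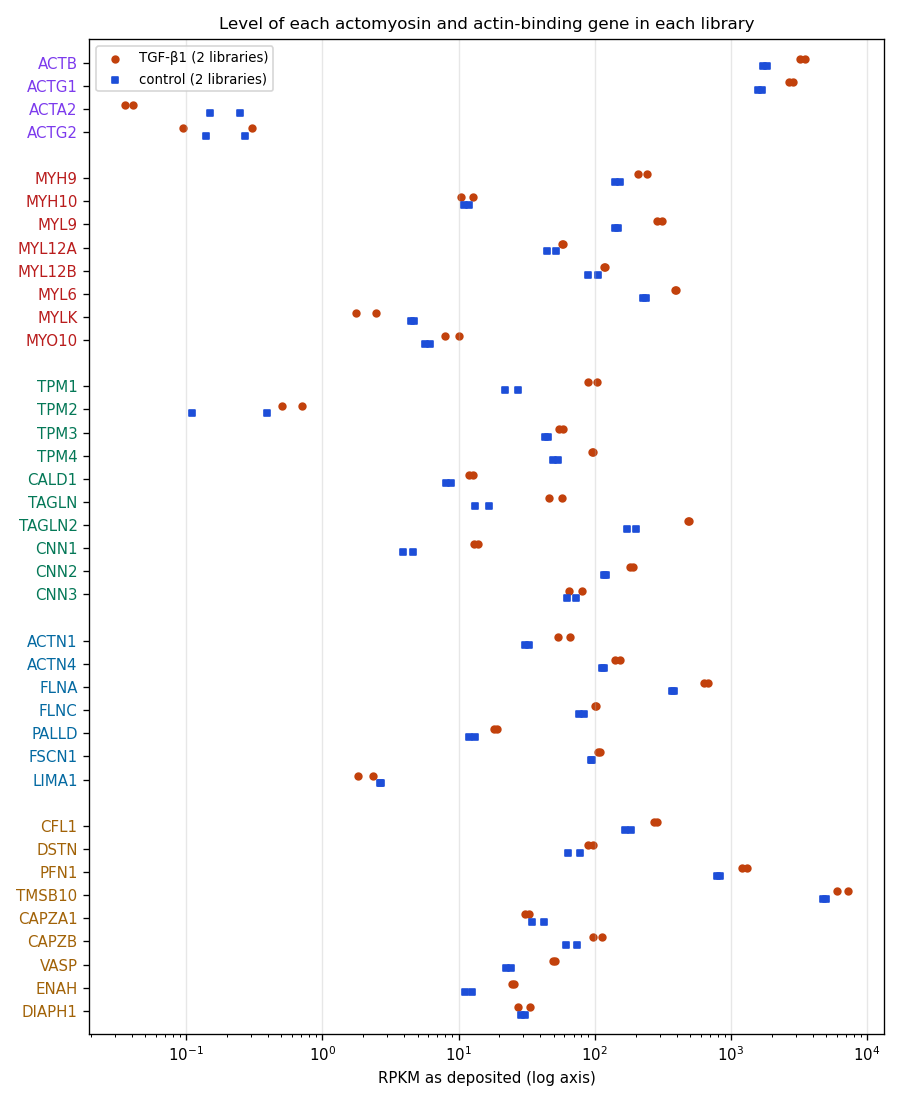
Level of each of the 38 genes in each library, as RPKM on a log axis, with TGF-β1 libraries as circles and control libraries as squares, grouped by role. TMSB10, the cytoplasmic actins ACTB and ACTG1, and PFN1 lie highest, and ACTA2, ACTG2 and TPM2 lie below 1 RPKM in every library.

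Both cytoplasmic actins rose. ACTB (ENSG00000075624.13, hg38 chr7:5527147-5563784, minus strand), the gene of β-actin, stood at 3234 and 3530 RPKM with TGF-β1 and at 1731 and 1849 RPKM in controls. ACTG1 (ENSG00000184009.9, chr17:81509971-81523847, minus strand), the gene of γ-actin, stood at 2692 and 2852 RPKM with TGF-β1 and at 1587 and 1690 RPKM in controls. For both genes, each TGF-β1 library lay above each control. The change was 1.89-fold for ACTB (log2 0.92, 95% confidence interval 0.69 to 1.14, limma adjusted p = 0.00733) and 1.69-fold for ACTG1 (log2 0.76, 0.55 to 0.96, adjusted p = 0.00928). Both calls were lost without a filter on low values (adjusted p = 0.0572 for ACTB and 0.0698 for ACTG1) and without a variance trend (0.0574 and 0.0678), and that of ACTG1 also without control 1 (0.0615). ACTB is often taken as a reference for the other genes of a sample, and here its reads made up 0.943% and 0.993% of the TGF-β1 libraries against 0.573% and 0.589% of the controls. A gene unchanged in RPKM would appear lower with TGF-β1 when set against it. Copies of the actin genes are many, but words of 50 bases shared with other annotated genes made up only 4.84% of ACTB and 2.30% of ACTG1 exon sequence.

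The smooth muscle actins had between 0 and 5 reads in every library. ACTA2 (chr10:88935074-88991339, minus strand), the gene of α smooth muscle actin, had 0 reads in both TGF-β1 libraries and 1 and 3 reads in controls. A count of 0 allows up to 3 reads, or 0.243 and 0.214 RPKM in the TGF-β1 libraries, and the controls stood at 0.149 and 0.250 RPKM, so a difference was not detectable at this depth. ACTG2, the gene of enteric smooth muscle γ-actin, had 1 and 5 reads with TGF-β1 and 3 and 2 reads in controls, with overlapping groups. ACTB alone had 43770 and 54127 reads with TGF-β1, against 19115 and 28296 reads in controls.

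Among the myosins, the nonmuscle IIA heavy chain and 2 light chains rose while the kinase for the light chain fell. MYH9, the heavy chain of nonmuscle myosin IIA, was at 209 and 243 RPKM with TGF-β1 and at 141 and 155 RPKM in controls. MYL9, a regulatory light chain that smooth muscle shares with other cells, was at 286 and 314 RPKM with TGF-β1 and at 140 and 148 RPKM in controls. MYL6, the essential light chain of nonmuscle and smooth muscle myosin, was at 390 and 399 RPKM with TGF-β1 and at 227 and 239 RPKM in controls. None of these groups overlapped. By limma the rises were 1.53-fold for MYH9 (log2 0.61, 0.36 to 0.85, adjusted p = 0.0256), 2.08-fold for MYL9 (1.06, 0.87 to 1.24, 0.00319) and 1.69-fold for MYL6 (0.76, 0.60 to 0.91, 0.00444). The MYH9 call was lost without a filter on low values (adjusted p = 0.0531), without a variance trend (0.121) and under quantile normalisation (0.0546). It was also lost without control 1 and without TGF-β1 library 2. The MYH9 log2 difference stayed between 0.33 and 0.72 in all 15 alternative settings.

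The other nonmuscle myosin genes were not called. MYH10, the IIB heavy chain, was at 10.3 and 12.7 RPKM with TGF-β1 and at 10.9 and 11.9 RPKM in controls, with overlapping groups and a log2 difference of 0.01 (-0.32 to 0.34). The ubiquitous regulatory light chains MYL12A and MYL12B, neighbours on 1 chromosome, had log2 differences of 0.26 (0.03 to 0.49, limma adjusted p = 0.156) and 0.29 (0.05 to 0.53, adjusted p = 0.137). MYL12A was at 58.8 and 57.4 RPKM with TGF-β1 and at 44.9 and 52.2 RPKM in controls, and MYL12B at 120 and 118 RPKM with TGF-β1 and at 89.0 and 106 RPKM in controls. Their groups did not overlap, and neither gene passed the test. MYO10, an unconventional myosin that carries cargo along filopodia, was at 8.02 and 10.0 RPKM with TGF-β1 and at 6.14 and 5.71 RPKM in controls (log2 0.56, limma adjusted p = 0.0816).

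MYLK (chr3:123610049-123884331, minus strand), the gene of myosin light chain kinase, was the single member that fell in this fit. It stood at 1.76 and 2.49 RPKM with TGF-β1 and at 4.72 and 4.48 RPKM in controls, with no overlap. The level with TGF-β1 was 0.462 times that of controls (log2 -0.97, -1.47 to -0.47, limma adjusted p = 0.0473). The reads behind it were 162 and 259 with TGF-β1 and 354 and 466 in controls. The call was lost in 8 of 15 alternative settings, among them without any 1 of the 4 libraries (adjusted p = 0.0703 to 0.147), although the log2 difference stayed between -1.30 and -0.77 in all 15. MYLK2, a paralogue known as the skeletal muscle kinase and no member of the set, went the other way: 12.6 and 12.8 RPKM with TGF-β1 and 4.91 and 4.83 RPKM in controls (2.61-fold, log2 1.30, limma adjusted p = 0.00422).

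Among the proteins that coat thin filaments, 8 of 9 tested genes rose and the median log2 difference was 0.90. TPM1 (chr15:63042632-63071915, plus strand), the gene of α-tropomyosin, had 88.8 and 104 RPKM with TGF-β1 and 21.8 and 27.3 RPKM in controls. The rise of 3.92-fold (log2 1.96, 1.61 to 2.30, limma adjusted p = 0.0033) was the largest of the 35 tested members. Many transcripts are made from TPM1 by alternative promoters and splicing, and a single value per gene does not tell them apart. Of its 50-base exon words 20.0% occur in another annotated gene, chiefly the antisense gene TPM1-AS, which had 0 reads in both TGF-β1 libraries and in control 1, and 1 read in control 2.

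TPM4, a tropomyosin gene active mainly in nonmuscle cells, was at 95.4 and 97.6 RPKM with TGF-β1 and at 49.3 and 54.0 RPKM in controls (1.87-fold, log2 0.90, limma adjusted p = 0.0044). TPM3 was at 54.8 and 58.3 RPKM with TGF-β1 and at 42.9 and 45.2 RPKM in controls, without overlap. Its rise of 1.28-fold (log2 0.36, 0.18 to 0.53, limma adjusted p = 0.0424) was lost in 10 of 15 settings, including all 4 other scalings and the removal of any 1 library (0.0662 to 0.189). TPM2, the gene of β-tropomyosin, had 8 and 13 reads with TGF-β1 and 1 and 7 reads in controls and was not tested.

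TAGLN (chr11:117199321-117204782, plus strand), which encodes transgelin or SM22α, an actin-binding protein used as a marker of smooth muscle, was at 46.5 and 57.3 RPKM with TGF-β1 and at 13.3 and 16.6 RPKM in controls. CNN1 (chr19:11538717-11550323, plus strand), the gene of basic calponin, which inhibits the myosin ATPase in smooth muscle, was at 13.0 and 13.9 RPKM with TGF-β1 and at 4.65 and 3.94 RPKM in controls. TAGLN2 (chr1:159918107-159925732, minus strand), the transgelin of nonmuscle cells, was at 482 and 494 RPKM with TGF-β1 and at 173 and 202 RPKM in controls. For all 3 genes the groups lay far apart. The rise was 3.47-fold for TAGLN (log2 1.76, 1.38 to 2.15, limma adjusted p = 0.00539) and 3.13-fold for CNN1 (1.54, 1.23 to 1.86, 0.00453). For TAGLN2 it was 2.60-fold (1.38, 1.15 to 1.61, 0.00303). All 3 calls held in every one of the 15 settings. TAGLN shares 11.4% of its exon bases with PCSK7 on the opposite strand. PCSK7 had 139 and 155 reads with TGF-β1 and 85 and 123 in controls, against 757 and 1057 for TAGLN with TGF-β1 and 176 and 306 in controls. Whether the counting used strand is not stated in the labels or headers.

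CNN2, the calponin found in many nonmuscle cells, was at 182 and 190 RPKM with TGF-β1 and at 117 and 121 RPKM in controls (1.57-fold, log2 0.65, limma adjusted p = 0.00671). CNN3, acidic calponin, was at 65.2 and 80.3 RPKM with TGF-β1 and at 62.6 and 73.5 RPKM in controls. The CNN3 groups overlapped, and the log2 difference of 0.09 had an interval of -0.24 to 0.42. CALD1, caldesmon, which restrains myosin on the thin filament, was at 11.8 and 12.9 RPKM with TGF-β1 and at 8.04 and 8.74 RPKM in controls. Its rise of 1.47-fold (log2 0.53, 0.27 to 0.80, limma adjusted p = 0.0421) was lost in 9 of 15 settings. Among them were a fit without a variance trend (0.119), scaling by total reads (0.0861) and the removal of any 1 library. The log2 difference stayed between 0.36 and 0.59 in all 15.

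**Figure D2:**
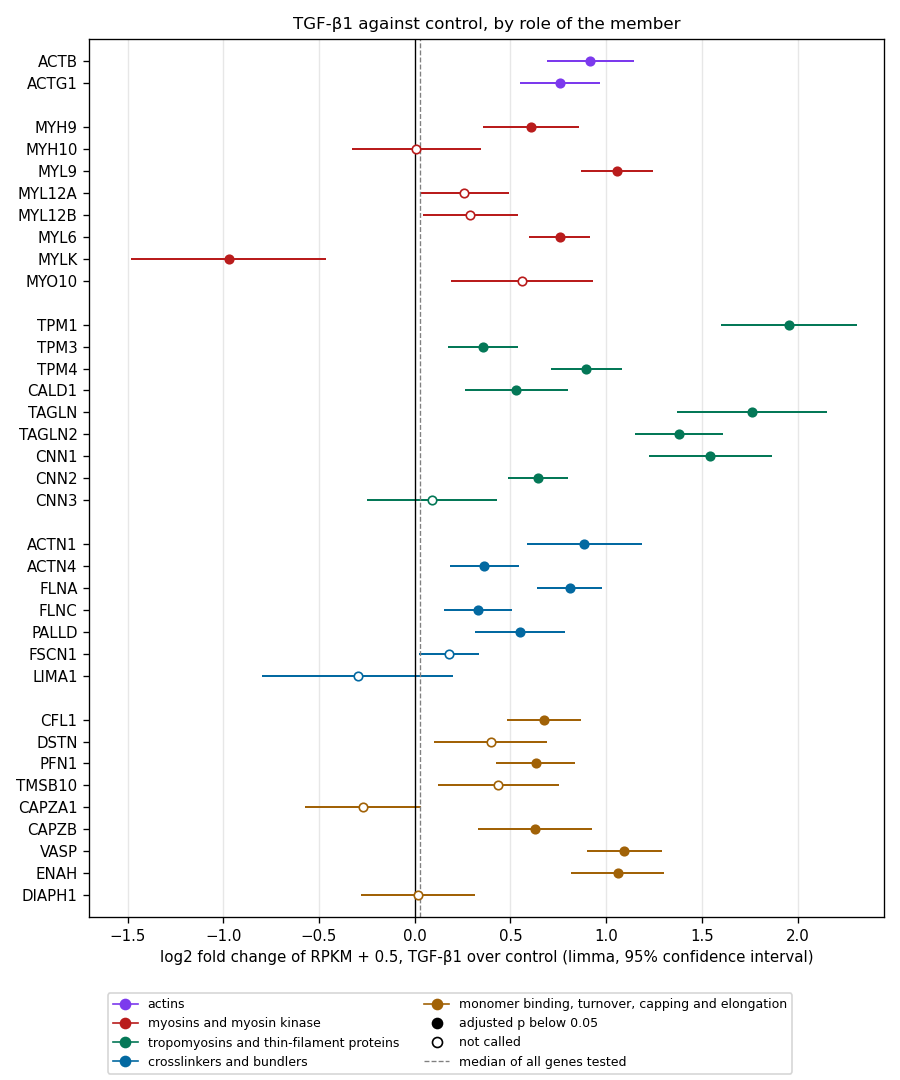
Log2 difference of each of the 35 tested members, TGF-β1 over control, with its 95% confidence interval from limma, coloured by role. Filled points passed an adjusted p below 0.05, MYLK lies to the left of 0 at -0.97, and TPM1, TAGLN, CNN1 and TAGLN2 lie farthest to the right.

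Of the 7 crosslinkers and bundlers 5 rose. ACTN1, a nonmuscle α-actinin of stress fibres and adhesions, was at 53.5 and 65.8 RPKM with TGF-β1 and at 30.8 and 33.0 RPKM in controls. FLNA, filamin A, which joins filaments at wide angles and anchors them to membrane proteins, was at 641 and 677 RPKM with TGF-β1 and at 368 and 383 RPKM in controls. PALLD, palladin, a scaffold that binds α-actinin along stress fibres, was at 18.2 and 19.1 RPKM with TGF-β1 and at 12.0 and 13.2 RPKM in controls. All 3 genes were separated between the groups. By limma the rises were 1.87-fold for ACTN1 (log2 0.89, 0.59 to 1.18, adjusted p = 0.0156), 1.75-fold for FLNA (0.81, 0.65 to 0.97, 0.00448) and 1.48-fold for PALLD (0.55, 0.32 to 0.78, 0.0277). PALLD was not called without a variance trend (adjusted p = 0.108) or when scaled by total reads (0.0557). Nor was it called without control 1, TGF-β1 library 1 or TGF-β1 library 2.

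ACTN4 and FLNC rose by less, and their calls were lost in 9 and 11 of the 15 settings. ACTN4, the α-actinin mutated in a familial form of glomerular disease, was at 141 and 154 RPKM with TGF-β1 and at 113 and 117 RPKM in controls (1.29-fold, log2 0.36, limma adjusted p = 0.0388). FLNC, the filamin known best from muscle, was at 100 and 102 RPKM with TGF-β1 and at 84.0 and 77.0 RPKM in controls (1.26-fold, log2 0.33, limma adjusted p = 0.049). Without any 1 library neither was called, with adjusted p of 0.0601 to 0.146 for ACTN4 and 0.0556 to 0.175 for FLNC. FSCN1, fascin, which bundles filaments in filopodia, was at 106 and 110 RPKM with TGF-β1 and at 94.0 and 96.3 RPKM in controls (log2 0.18, 0.03 to 0.33, adjusted p = 0.141). LIMA1, which encodes the filament-stabilising protein EPLIN, was at 2.34 and 1.83 RPKM with TGF-β1 and at 2.68 and 2.64 RPKM in controls (log2 -0.30, -0.79 to 0.20, adjusted p = 0.424). Neither FSCN1 nor LIMA1 passed the test, though the groups of both were separate, and with voom on the recovered reads LIMA1 was called lower (log2 -0.55, adjusted p = 0.0437). Voom was scaled by total reads, and only 29.9% of its calls over all genes were rises.

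Among the 9 genes for monomer binding, turnover, capping and elongation, 5 rose. VASP and ENAH, the 2 genes of this set from the Ena/VASP family, which lengthens filaments at their barbed ends, rose together. EVL, a paralogue outside the set named after its value was seen, was not called (log2 0.54, limma adjusted p = 0.0705). VASP was at 49.2 and 51.2 RPKM with TGF-β1 and at 22.3 and 24.2 RPKM in controls. ENAH was at 24.6 and 25.7 RPKM with TGF-β1 and at 11.1 and 12.5 RPKM in controls. The change was 2.16-fold for VASP (log2 1.09, 0.90 to 1.28, limma adjusted p = 0.00319) and 2.13-fold for ENAH (1.06, 0.82 to 1.30, 0.00577), and both calls held in all 15 settings. DIAPH1, a formin that works at the same end, did not pass: it was at 27.3 and 33.3 RPKM with TGF-β1 and at 28.7 and 31.0 RPKM in controls, with overlapping groups (log2 0.02, -0.28 to 0.31).

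PFN1, profilin, which feeds actin monomers to growing ends, was at 1206 and 1325 RPKM with TGF-β1 and at 796 and 836 RPKM in controls (1.55-fold, log2 0.63, limma adjusted p = 0.0137). CFL1, cofilin, which severs old filaments, was at 271 and 289 RPKM with TGF-β1 and at 167 and 184 RPKM in controls (1.60-fold, log2 0.67, limma adjusted p = 0.0098). The PFN1 call was lost without a filter on low values, without a variance trend (adjusted p = 0.0897) and without control 1. DSTN, a close relative of cofilin, was at 90.1 and 96.5 RPKM with TGF-β1 and at 63.6 and 78.5 RPKM in controls (log2 0.40, 0.11 to 0.69, adjusted p = 0.104). TMSB10, thymosin β10, which sequesters monomers, was the highest member per length at 6034 and 7227 RPKM with TGF-β1 and at 4752 and 5005 RPKM in controls (log2 0.44, 0.13 to 0.75, adjusted p = 0.0971). Neither DSTN nor TMSB10 passed the test, and neither had overlapping groups.

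Capping protein is a dimer of an α and a β subunit that closes barbed ends, and its genes gave values on opposite sides of 0. CAPZB, the β subunit, was at 97.8 and 113 RPKM with TGF-β1 and at 62.0 and 74.0 RPKM in controls (1.55-fold, log2 0.63, 0.33 to 0.92, limma adjusted p = 0.0367). CAPZA1, an α subunit, was at 33.1 and 30.6 RPKM with TGF-β1 and at 34.7 and 42.7 RPKM in controls (log2 -0.27, -0.57 to 0.03, adjusted p = 0.235), and voom called it lower (log2 -0.47, adjusted p = 5.34e-05). Voom was scaled by total reads and called 1186 rises and 2786 falls over all genes. Its p-values can lie far below those of limma on RPKM, as for ACTB (voom adjusted p = 5.46e-34). CAPZB lost its call without control 1 (0.0674), without TGF-β1 library 2 (0.0988) and in 3 further settings. The difference between the subunits was not tested.

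Within protein families the mix of genes also shifted, a comparison in which the scaling of the libraries cancels. In each family, every gene's RPKM was divided by the family's sum in that library. TPM1 took 38.5% ± 2.0 of tropomyosin RPKM with TGF-β1 and 20.3% ± 1.7 in controls, while TPM3 took 22.6% ± 0.37 with TGF-β1 and 36.6% ± 1.4 in controls. TPM4 was the largest tropomyosin in controls at 42.9% ± 0.49, and with TGF-β1 it stood level with TPM1 at 38.6% ± 1.7. MYL9 took 62.9% ± 1.9 of the regulatory light chains with TGF-β1 and 49.7% ± 2.0 in controls, and MYL12B 24.9% ± 1.2 with TGF-β1 and 33.5% ± 1.5 in controls. Libraries of the groups did not overlap in any of these shares. With 2 libraries a group, the exact two-sided permutation test cannot go below p = 0.33, which is the value of each of these differences.

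Among transgelins and calponins, TAGLN2 made up 60.1% ± 1.4 with TGF-β1 and 47.6% ± 1.2 in controls, TAGLN 6.38% ± 0.68 with TGF-β1 and 3.79% ± 0.29 in controls, and CNN3 8.93% ± 0.95 with TGF-β1 and 17.3% ± 0.52 in controls. TAGLN2 made up more of the family than TAGLN and CNN1 together in both conditions. ACTN1 took 28.7% ± 1.7 of the α-actinins with TGF-β1 and 21.8% ± 0.42 in controls. MYH9 took 95.2% ± 0.18 of the MYH9 and MYH10 sum with TGF-β1 and 92.8% ± 0.052 in controls. The cytoplasmic actins kept a near-even balance: ACTB held 54.9% ± 0.52 of actin RPKM with TGF-β1 and 52.2% ± 0.054 in controls. The shares rest on union exon lengths, which were 12492 bases for TPM1, 7414 bases for TPM4 and 496 bases for TMSB10, so a gene with many alternative exons reads low per length. Whether it does so equally in both groups was not tested. By reads, TPM1 (4608 and 6130) exceeded TPM4 (2939 and 3408) with TGF-β1, and lay below it in controls (924 and 1605 against 1240 and 1882).

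**Figure D3:**
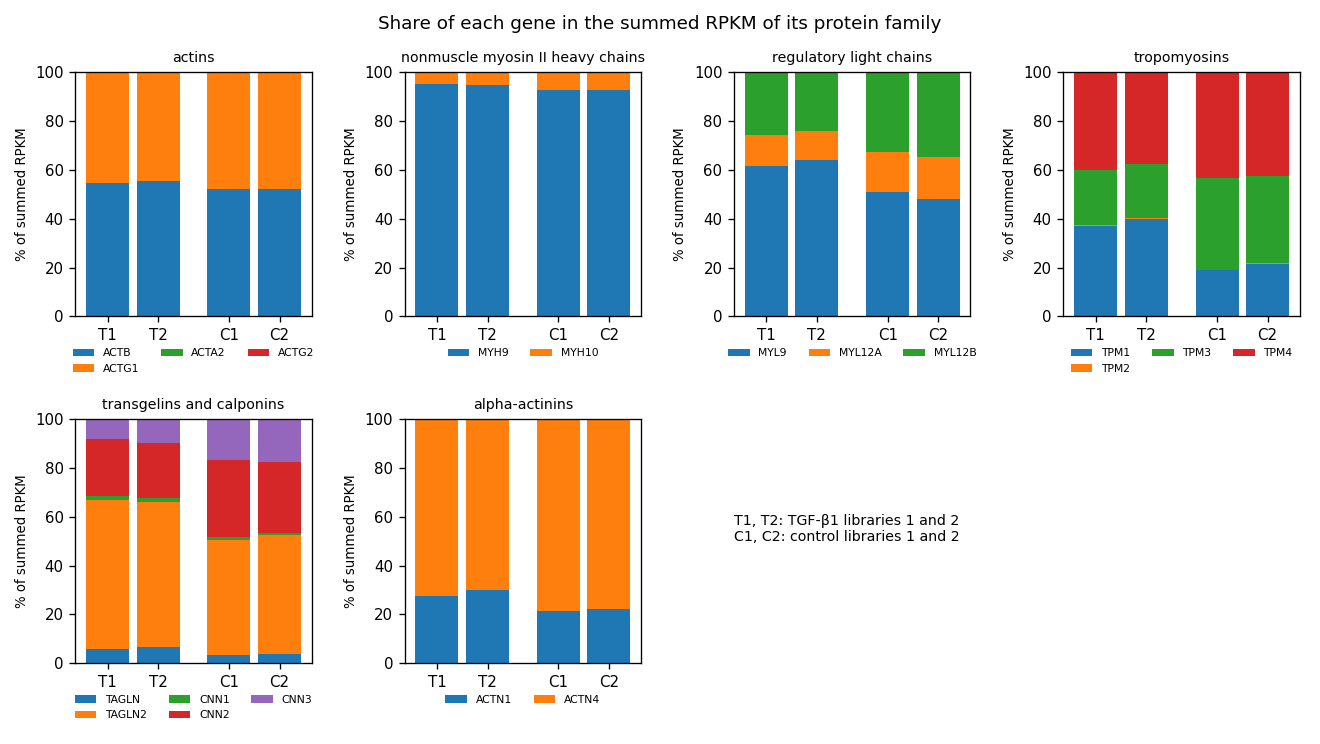
Share of each gene in the summed RPKM of its protein family, in percent, for TGF-β1 libraries 1 and 2 (T1, T2) and control libraries 1 and 2 (C1, C2). The TPM1 share is larger in both TGF-β1 libraries than in either control, and the ACTB share is 54.9% with TGF-β1 and 52.2% in controls.

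The authors' scaling bears on the smaller changes. Scaled instead by total recovered reads, the median of all tested genes moved by -0.15 on the log2 scale, to -0.13, and the median of the members was 0.43, or 0.56 above all genes, against 0.58 above with the authors' scaling. Of all calls, 67.1% were rises as deposited, 42.6% with total reads, 50.4% under quantile normalisation and 29.9% with voom on the recovered reads. Under these scalings 18 members rose with total reads, 17 with quantile normalisation and 26 with voom, which also called 3 falls (MYLK, LIMA1 and CAPZA1). With the authors' scaling, 14 members rose without a filter on low values and 7 without a variance trend. In all 4 other scalings of RPKM, 16 of the 24 member calls held, and 14 held when any 1 library was left out. The calls of MYL9, TPM1, TAGLN, TAGLN2, CNN1, VASP and ENAH held in each of the 15 settings. MYL6, TPM4, CNN2, ACTN1, FLNA and CFL1 lost theirs in 1 setting, a fit without a variance trend. MYH10, CNN3, FSCN1 and DIAPH1, none of them called, changed sign with total reads.

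**Figure D4:**
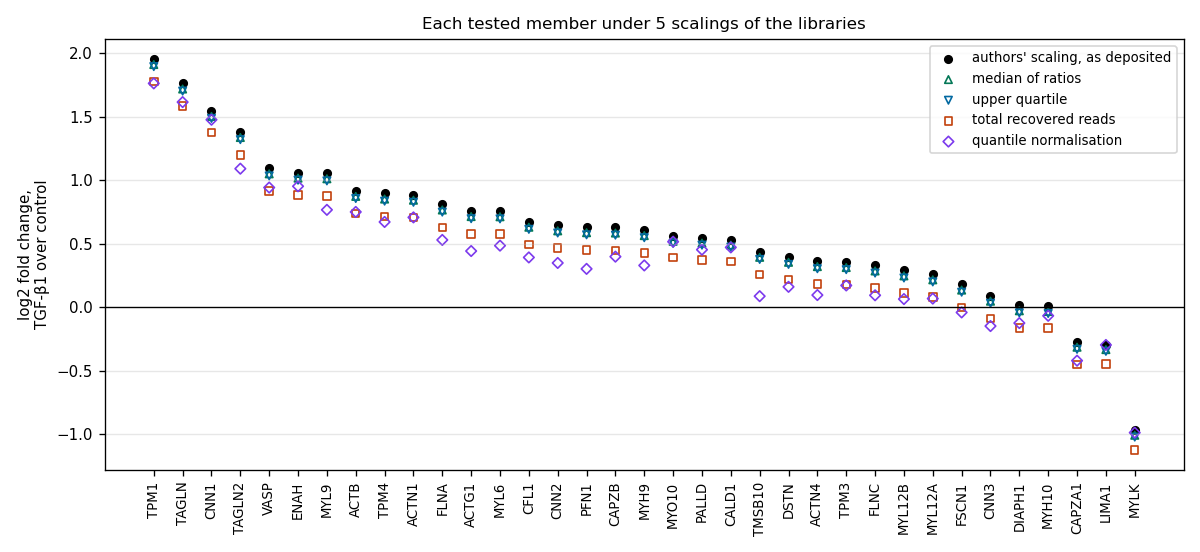
Log2 difference of each tested member, TGF-β1 over control, with the authors' scaling and 4 others, ordered by the deposited scaling. Total reads and quantile normalisation lie lower than the deposited values for most members, and TPM1, TAGLN, CNN1 and TAGLN2 stay above 1 in all 5.

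Genes that regulate the contractile system or share its work were counted from 5 lists that hold no member, and are to be read against the 6.12% of all tested genes that rose and the 3.0% that fell. Of 35 tested upstream regulators (small GTPases and their partners, kinases, myosin phosphatase subunits and SRF cofactors), 11 rose and 0 fell, with a median log2 difference of 0.10. With limma, 1 regulator fell at an unadjusted p under 0.05, and voom on the recovered reads gave 10 rises and 6 falls. LIMK1, which phosphorylates cofilin and blocks severing, was at 36.7 and 38.3 RPKM with TGF-β1 and at 22.2 and 23.3 RPKM in controls (log2 0.71, limma adjusted p = 0.0083). SRF, the factor that binds the CArG box, was at 34.4 and 33.9 RPKM with TGF-β1 and at 19.7 and 16.8 RPKM in controls (0.89, 0.00988). PPP1R14B, an inhibitor of the phosphatase that acts on myosin light chain, was at 99.7 and 114 RPKM with TGF-β1 and at 51.2 and 59.1 RPKM in controls (0.95, 0.00988). In each of these 3 genes the groups did not overlap. The coactivators of SRF are named after their values were seen. MRTFA, of the MRTF family, rose (12.5 and 14.1 RPKM with TGF-β1, 7.35 and 7.72 RPKM in controls, log2 0.78, limma adjusted p = 0.0178), and MYOCD, the myocardin of cardiac and smooth muscle, was at 0.0166 RPKM or less in all 4 libraries.

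Branched actin networks are built by the Arp2/3 complex, and of its 24 tested subunits and activators 1 rose (4.17%) and 1 fell (median log2 0.11), shares close to those of all genes, and voom gave 2 rises and 3 falls. ARPC4, a subunit, rose (14.5 and 14.0 RPKM with TGF-β1, 8.30 and 9.88 RPKM in controls, log2 0.63, limma adjusted p = 0.0363). WASL, the activator N-WASP, fell (8.33 and 7.11 RPKM with TGF-β1, 13.1 and 11.3 RPKM in controls, -0.63, 0.0496). Of 23 further genes for turnover, capping and severing, 3 rose and 0 fell (median 0.05), while at an unadjusted limma p under 0.05 there were 3 falls and voom gave 4 rises and 8 falls. The 3 were CAP1, which recycles monomers (0.73, limma adjusted p = 0.00964), WDR1, which helps cofilin (0.47, 0.025), and TWF2, a twinfilin (0.44, 0.0332).

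Among 13 tested paralogues of the members, many of them muscle genes, 2 rose and 0 fell (median 0.21), with 1 fall at an unadjusted limma p under 0.05 and 2 by voom. The rises include MYLK2, given above, and 12 others of the 25 in the table were too low to test. Of 27 tested formins, other myosins and bundlers 7 rose and 1 fell (median 0.14), with 2 falls at an unadjusted limma p under 0.05, and voom gave 8 rises and 8 falls. FHOD1, a formin of stress fibres, was at 21.5 and 23.3 RPKM with TGF-β1 and at 8.15 and 8.56 RPKM in controls (log2 1.37, limma adjusted p = 0.00317). MARCKS, a membrane protein that binds and crosslinks actin, was at 201 and 185 RPKM with TGF-β1 and at 81.4 and 92.2 RPKM in controls (1.15, 0.0039). Its relative MARCKSL1 also rose (0.92, 0.0129), and the single fall was PLS1, a plastin of microvilli (-1.28, 0.0392), named after its value was seen. The difference between any of these lists and the members was not tested.

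**Figure D5:**
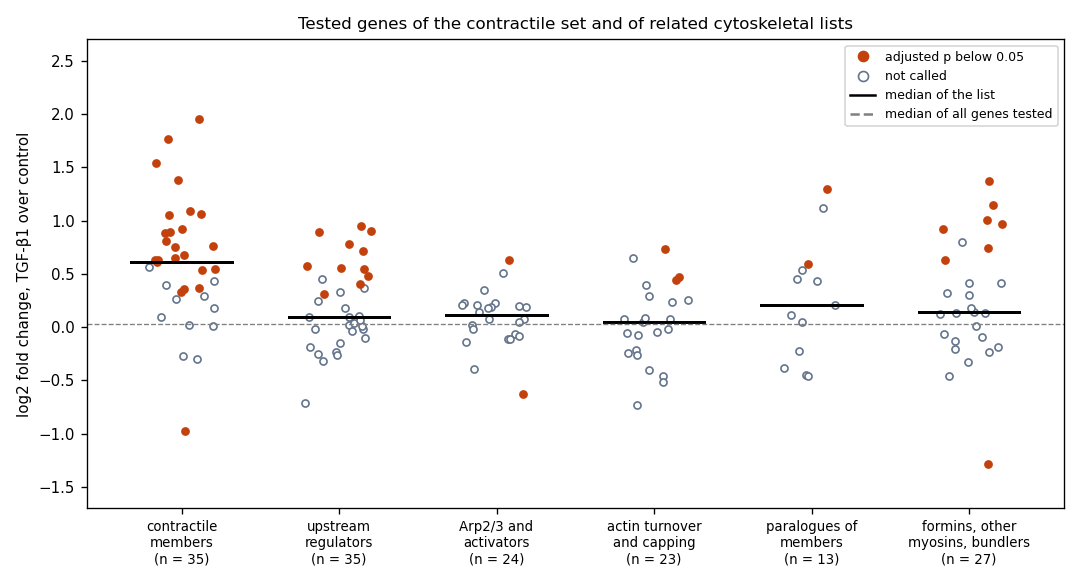
Log2 difference of every tested gene, TGF-β1 over control, for the contractile members and 5 related lists, with filled points for an adjusted p below 0.05. Short bars are list medians, at 0.61 for the members and between 0.05 and 0.21 for the other lists, beside the median of all genes at 0.03 (dashed).

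Markers of cell types were read beside these values. Of 11 proximal tubule markers measured, 7 were under 1 RPKM in every library, among them CUBN, AQP1, SLC34A1 and ANPEP, and the summed level was 46.8 and 44.7 RPKM with TGF-β1 and 86.5 and 88.8 RPKM in controls. PAX8, GGT1 and DPP4 were among those expressed. Of 12 smooth muscle and pericyte markers, which include ACTA2 and ACTG2, 9 were under 1 RPKM in every library, with MYH11 between 0.0991 and 0.138 RPKM and DES at 0.130 RPKM or less. Their sum was 28.0 and 28.7 RPKM with TGF-β1 and 15.3 and 14.8 RPKM in controls. Most of it was SMTN, smoothelin, at 21.8 and 22.7 RPKM with TGF-β1 and 9.69 and 8.76 RPKM in controls. The 5 fibroblast markers summed to 8.90 and 6.94 RPKM with TGF-β1 and 12.5 and 13.2 RPKM in controls, mainly LUM, and the 3 endothelial markers had 0 reads throughout. Blood markers summed to 2.39 and 1.16 RPKM with TGF-β1 and 1.59 and 2.16 RPKM in controls, and 5 general epithelial markers to 357 and 394 RPKM with TGF-β1 and 298 and 319 RPKM in controls. Within that sum the keratins KRT8 (log2 1.19, limma adjusted p = 0.00335) and KRT18 (0.43, 0.0429) rose, KRT19 (-1.52, 0.00127) and EPCAM (-0.89, 0.0157) fell, and CDH1 was not called (-0.59, 0.251). The part of these marker differences in the members' values was not tested.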

How the data were processed

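RNA was sequenced from 4 HK-2 samples, grouped by title and treatment label. Per the labels' protocols, total RNA (TRIzol) went into strand-preserving NEBNext libraries. The authors deposited RPKM values in 1 table, used without further scaling. STAR 2.7.1a, bcl2fastq 2.20.0.422, DESeq2 and hg38 are listed, without roles, in the submitters' processing notes. For the annotation, strand setting, filters and RPKM tool, nothing is stated (not given in the sources used here). Symbols were matched for 25312 of 25609 identifiers. Coordinates and exon lengths came from GENCODE 29.

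Times exon length, values fell on whole reads plus 0.5 (tolerance 0.001 read) for 100% of the genes with the same identifier version in GENCODE 29. Lengths of 1327 other genes were inferred, and reads were recovered for 25504 genes. Exact 0 does not occur, and a gene without reads is listed at the value of 0.5 read. Depth limits weak genes. Counting floors of 3 reads cover counting error only.

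Genes with mean RPKM of at least 0.5 were tested with limma 3.58.1 (R 4.3.3; lmFit, eBayes with a variance trend, 2 residual degrees of freedom) on log2(RPKM + 0.5), with Benjamini-Hochberg adjustment over all 16590 genes, after the procedure was tested on simulated data. Alternatives were pseudocounts of 0.1 and 1, no filter, a filter of 2 RPKM, no trend, a replicate block, scaling by total reads, median of ratios, upper quartile or quantiles, voom on recovered reads, and each library left out. Promoter windows came from RefSeq (GRCh38.p14). All 38 members are accounted for, and in each other list the 3 called genes with the smallest p are named. The members and lists were chosen with earlier results of these data known. Some genes that meet this rule are not reported here.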

Additional observations from a re-analysis of the deposited data

How the results depend on the processing

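Across 35 tested members and 15 settings, 416 of 525 results kept direction and side of the threshold, 76 lost the call, 11 gained one and 22 changed sign. All genes called numbered 1513 as deposited, 977 without a filter, 424 without a variance trend, 3972 with voom and 574 to 1138 with 1 library left out. Rises numbered 1015, against 280 without a trend, 655 with total reads and 395 to 842 with 1 library left out. Members called numbered 24, against 14 without a filter, 7 without a trend and 14 to 21 with 1 library left out, and rising members 23, against 14, 7 and 14 to 21. Without a trend the calls in the regulator, Arp2/3, turnover, paralogue and formin lists (11, 2, 3, 2 and 8 as deposited) were 0, 0, 0, 1 and 2, with 15, 3 and 6 genes of the first 3 at an unadjusted limma p under 0.05. With 1 library left out they were 4 to 10, 0 to 2, 1 to 4, 1 and 3 to 6. Voom gave 5, 12, 6 and 16 for the last 4. Quantile normalisation gave 6 for the regulator list. For the Arp2/3 list, a pseudocount of 1, total reads and quantile normalisation gave 1, no filter 0 (6 at an unadjusted limma p under 0.05) and a filter of 2 RPKM 4. That filter gave 5 for turnover and 4 for paralogues, and pseudocounts of 0.1 and 1 and no filter each gave 1 for paralogues. With total reads, median of ratios, upper quartile, quantiles and voom, MYH10 was at log2 -0.16, -0.034, -0.050, -0.068 and -0.17, and DIAPH1 at -0.16, -0.028, -0.045, -0.13 and -0.16. With total reads, quantiles and voom, CNN3 was at -0.088, -0.15 and -0.093 and FSCN1 at -0.0012, -0.041 and -8.0e-05. With 1 library left out MYH10 ranged from -0.13 to 0.15, CNN3 from -0.058 to 0.24 and DIAPH1 from -0.12 to 0.16. Among family shares, 8 of 115 alternative values moved by more than the SD, all with reads in place of RPKM. Same-numbered libraries did not deviate together (correlation 0.03), so the numbers were not taken as pairs. With the replicate block 1344 genes were called, 23 members rose and 0 fell, with MYLK (adjusted p 0.0682), CALD1 (0.0525) and FLNC (0.0572) lost and DSTN (0.0491) and TMSB10 (0.0389) gained. The cause of these shifts was not tested. Depth limits ACTA2, ACTG2 and TPM2.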
